A study of Danio rerio with 3 samples.

Results

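The intestinal transcriptome of zebrafish fed the Fe'i diet was set against that of fish fed the Control diet. Each diet had 1 poly(A) RNA library, so no difference below has a replicate check and no p-value was computed. The comparison covers every gene with a usable value that reached 1 FPKM (a fragment count corrected for transcript length and for the library's total) in the Fe'i or the Control library. That left 13379 of the 32519 gene identifiers listed, and 14061 identifiers reached 1 FPKM when the Cavendish library of the same study was counted too.

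The Fe'i diet was a granule made of 50% lyophilised pulp of ripe Fe'i banana and 50% Tetramin, a commercial fish feed. The Cavendish diet was the same granule made with 50% pulp of the Cavendish dessert banana. The Control diet was Tetramin alone. All fish were healthy adults of 6 to 9 months, kept under 14 hours of light and 10 hours of dark and given 4% of their body weight a day in 3 feedings. Feeding lasted 8 weeks, and the fish went 24 hours without food before their intestines were dissected on day 56. From 1 µg of total RNA with an RNA integrity number above 7, libraries were read in paired reads of 150 bases. Both banana diets hold only 50% of the commercial feed, so banana pulp and the smaller share of commercial feed cannot be told apart. The sources used here do not say how many fish, of which sex and strain, or which part of the gut went into each library.

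Fe'i bananas have orange pulp rich in provitamin A carotenoids, which enterocytes cleave to retinal and pass into retinol, retinyl esters or retinoic acid. In the zebrafish gut, enterocytes of the anterior part take up lipid and secrete it in lipoproteins. Further back, lysosome-rich enterocytes take up whole protein from the lumen through the receptors cubilin and amnionless with the adaptor Dab2, and digest it in a large lysosome. An ileum-like stretch reclaims bile acids and signals back to the liver through Fgf19.

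Values below are FPKM after scaling each library by a median ratio, with factors of 0.965 for the Fe'i, 0.969 for the Cavendish and 1.06 for the Control library. The figure after ± is the half-width of the deposited 95% interval on that scale. It covers counting and read assignment within a library and says nothing of differences between fish. A ratio is the Fe'i level over the Control level on the log2(FPKM + 1) scale, on which changes of low genes look smaller, and a fold is that ratio on a linear scale. A gene was called higher or lower when this ratio passed 2-fold and the 2 intervals did not overlap. The depth of the Fe'i library was 0.816 of the Control library's and that of the Cavendish library 1.27, and behind the median gene stood 126 effective fragments in the Fe'i library, 195 in the Cavendish library and 162 in the Control library. At 1 deposited FPKM or more stood 12581, 12944 and 12486 genes in the same order.

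Of the 13379 genes, the Fe'i library had 693 (5.18%) called higher and 252 (1.88%) called lower, together 7.06%. Among all measured genes, 893 reached 1 FPKM in the Fe'i library only and 798 in the Control library only. For a called gene of either kind, this entry limit had already fixed the direction. Such genes below include gstp2, thrsp, nr0b2b, tfr2, abcb11b and slc39a4. They also include ccl39a.10, tpmt.2, crp2, crp7, cldnd, hoxa9a, hoxc11a, cyp2p7, cyp2p8 and the hp gene called lower, and this list is not complete. Most genes moved little, with 75.8% inside a log2 ratio of 0.5 either way and a median of 0.01. Of the calls 163 were at least 4-fold higher and 40 at least 4-fold lower, and 25 and 13 passed 8-fold. A further 190 of the 1135 genes past 2-fold had overlapping intervals and were not called. Among called genes, 27 were listed at 0 in the Fe'i library and 29 in the Control library. A value of 0 carries an interval of 0 width, so these calls rest on the other library's interval alone. Genes called higher had a median level of 11 FPKM in the Fe'i library and 2.45 in the Control library. Genes called lower had medians of 1.92 FPKM in the Fe'i library and 8.6 in the Control library. The abundant gene sat1a.2, a spermidine acetyltransferase, shows why overlapping intervals were not called, at 127 ± 4731 FPKM in the Fe'i library, 10108 ± 12046 in the Cavendish library and 2349 ± 5513 in the Control library.

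**Figure D1:**
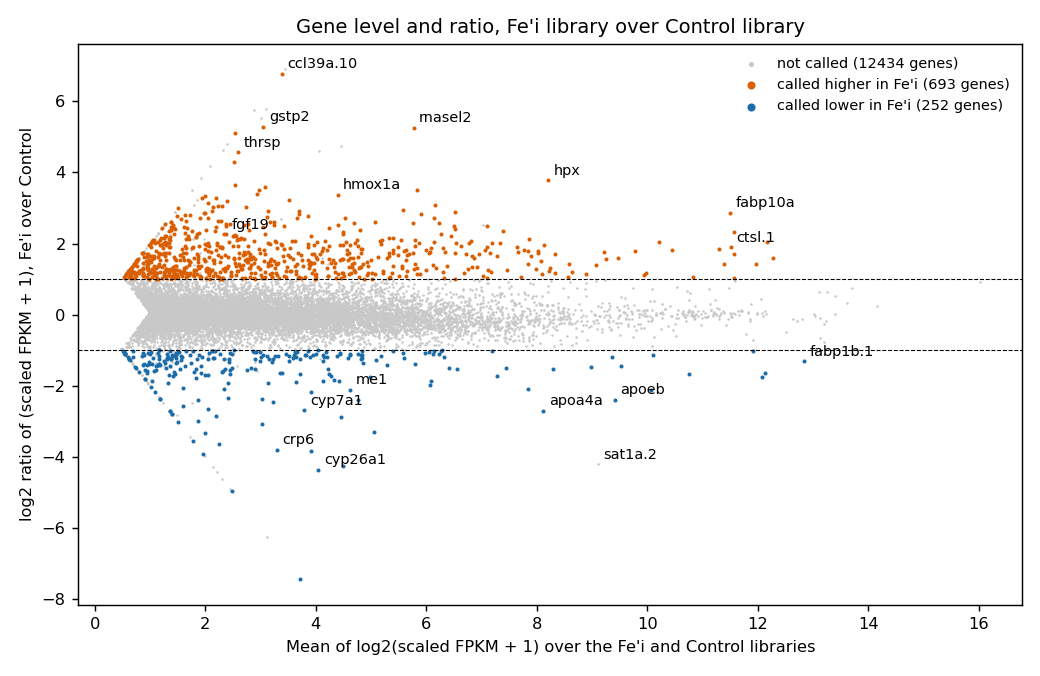
Each point is 1 of 13379 genes, with the mean of its log2(scaled FPKM + 1) over the Fe'i and Control libraries on the x axis and its log2 ratio, Fe'i over Control, on the y axis, and dashed lines at the 2-fold limits. The 693 genes called higher lie above 1 and the 252 called lower lie below -1.

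The share called higher was 5.94% among genes with a mean level under 2 FPKM and 7.94% among those at 100 FPKM or more. The share called lower was 2.81% and 2.05% in the same bins. By chromosome the share called ran from 4.44% on chromosome 18 to 13.4% on chromosome 22, which carries the clusters of factor H and clone-named genes described below. At the limit of measurement, tnnt2a entered with 1.00007 deposited FPKM in the Control library (0.671 in the Fe'i library). palm1b stayed out with 0.999859 (0.816 in the Fe'i library).

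Markers of intestinal epithelium were abundant, and markers of other organs were present at unequal levels. All 8 markers of intestinal epithelium were measured, among them villin (vil1) at 425 ± 18.4 FPKM in the Fe'i library and 523 ± 21.9 in the Control library and the fatty acid binding protein fabp2 at 3045 ± 129 FPKM in the Fe'i library and 4946 ± 207 in the Control library. Their sum was 7270 FPKM in the Fe'i, 7634 in the Cavendish and 12086 in the Control library. Most of it came from fabp2 and from chia.2, which was at 2723 FPKM in the Fe'i library and 5516 in the Control library. Of the 8 markers 1, chia.2, was called lower and none higher. Ratios were above 0 in 3 and below 0 in 5 (median -0.26), so the sum does not stand for the markers as a set. The 10 liver markers summed to 25623 FPKM in the Fe'i, 12686 in the Cavendish and 5669 in the Control library, and none was listed at 0 in any of them. Erythrocyte markers summed to 671, 442 and 184 FPKM in the same order, and endocrine pancreas markers to 918, 3022 and 332. Exocrine pancreas markers were nearly level between the Fe'i library (35359 FPKM) and the Control library (37073 FPKM), with 108835 in the Cavendish library. Egg and germ cell markers summed to 47.3 FPKM in the Fe'i, 2.81 in the Cavendish (4 of 12 markers listed at 0) and 4.71 in the Control library. Skeletal muscle markers summed to 4.26, 26.6 and 22.3 FPKM, and the 4 measured ones were all called lower in the Fe'i library. With so low a Fe'i sum, this count was in part set by the 1 FPKM entry limit. The markers of neurons and of sperm stayed under 1 FPKM in both libraries compared. These are bulk libraries, so fewer cells of a type and less RNA per cell cannot be told apart. Whether RNA of another organ's markers came from that organ or from the gut was not tested.

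**Figure D2:**
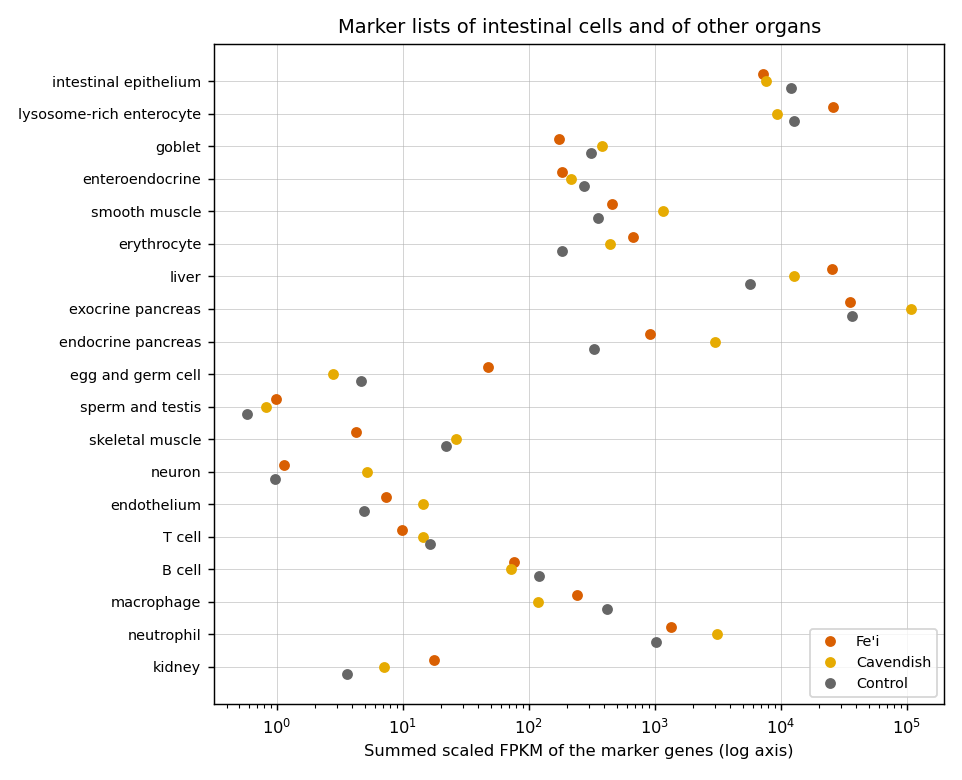
Points give the summed scaled FPKM of each cell type's markers, on a log axis, in the Fe'i, Cavendish and Control libraries (1 library each). The liver sum is 25623 FPKM in the Fe'i library and 5669 in the Control library, the egg sum 47.3 and 4.71.

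Gene lists were described by their calls and median ratio, to be read against the 5.18% higher and 1.88% lower over all measured genes and the median of 0.01. Of the lists other than the short marker lists, the largest shares called higher were those of liver proteins (35 of 40), egg and germ cells (20 of 24), complement and coagulation (42 of 55), erythrocytes (7 of 16) and lysosomal proteases (8 of 20). Of the 24 egg genes 16 reached 1 FPKM in the Fe'i library only, so their count was in part set by the entry limit. Among marker lists, all measured members were called higher for liver (10), egg (7) and endocrine pancreas (4). For lysosome-rich enterocytes 7 of 8 were called higher, and for erythrocytes 6 of 7. The egg marker count too was in part set by the entry limit, with zp2.1 at 0.139 FPKM and zp3a.2 at 0.39 FPKM in the Control library. In all, 237 of the 693 higher genes and 50 of the 252 lower genes belonged to any list. Of those 237, 72 were in the liver, complement or coagulation lists and 20 in the egg lists. Scaling to TPM (transcripts per the same fixed total in each library) moved the median of all genes to -0.11, and list medians moved with it. Of 20 list medians within 0.1 of 0, 12 changed sign under another setting, so no direction is read from medians that close to 0.

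**Figure D3:**
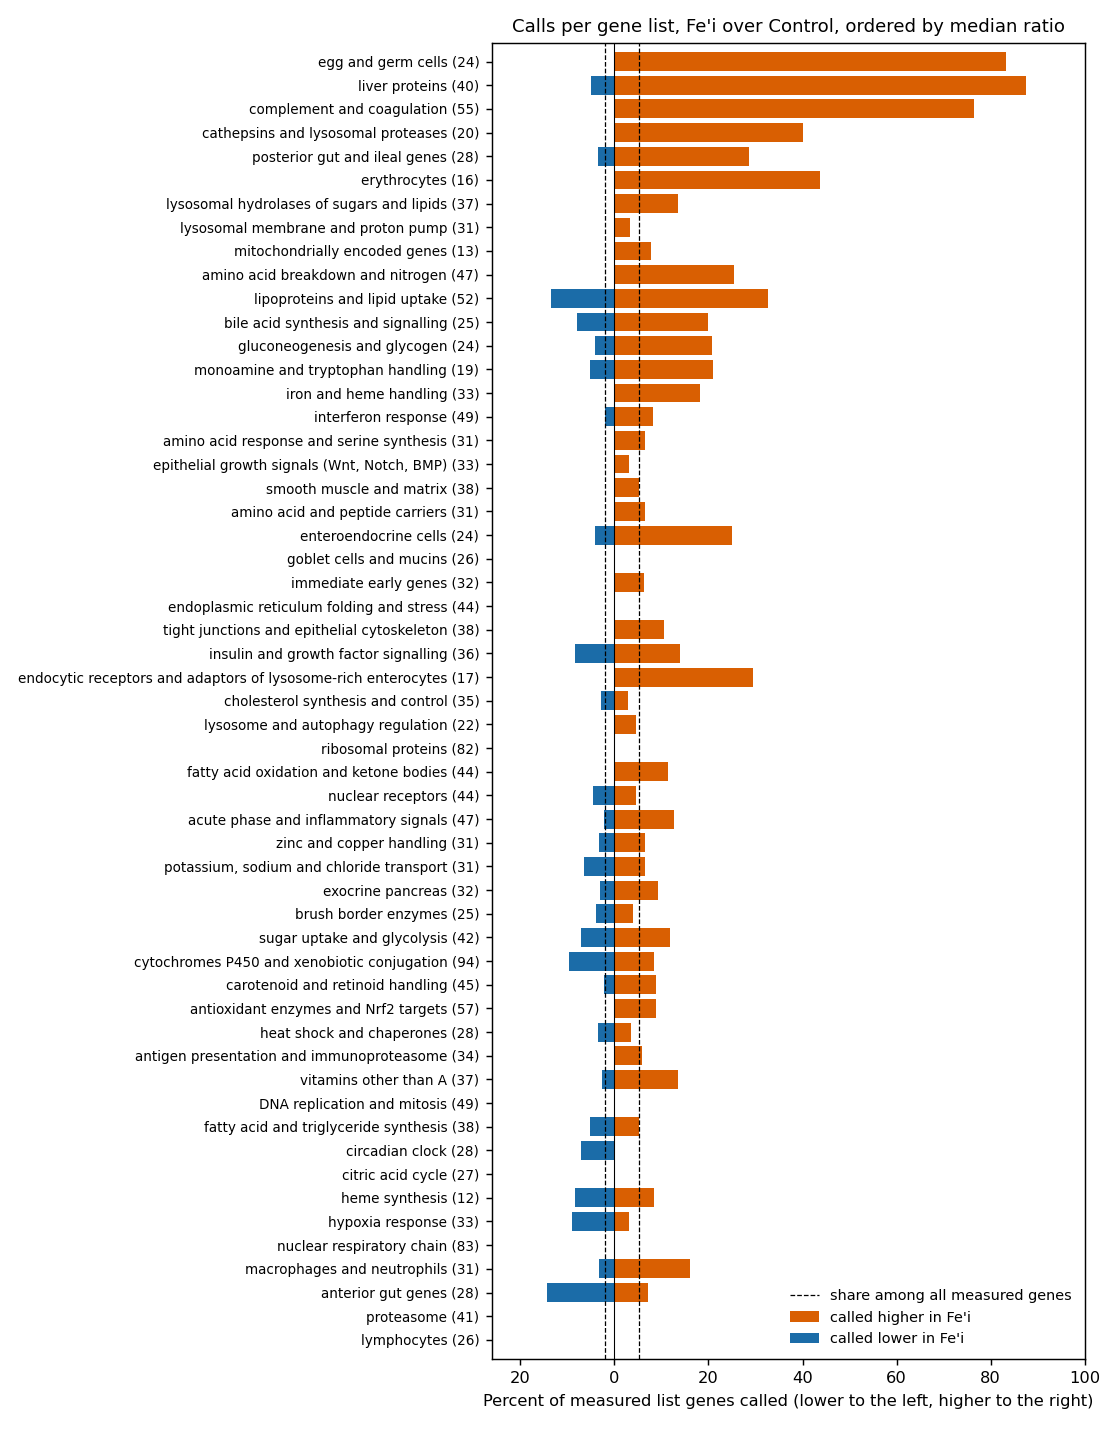
For each gene list, the share of measured members called higher (to the right) and lower (to the left) in the Fe'i library against the Control library, in percent, with dashed lines at the 5.18% and 1.88% of all measured genes. Complement and coagulation has 42 of 55 members called higher, and the proteasome list has none called.

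The highest ratios among named genes belonged to genes of several unlike kinds. ccl39a.10, a chemokine gene, was at 108 ± 69.9 FPKM in the Fe'i library and listed at 0 in the Cavendish and Control libraries, with a wide interval. Its relative ccl39.2 was at 132 ± 20.4 FPKM in the Fe'i library, 14.3 ± 3.34 in the Cavendish library and 16.3 ± 5.23 in the Control library. For ccl39.2 the Cavendish and Control levels lay close together and far below the Fe'i level. rnasel2, a secreted ribonuclease of the RNase A family (chromosome 22, 6293563 to 6294749 in GRCz11), was at 336 ± 11.5 FPKM in the Fe'i library, 157 ± 6.3 in the Cavendish library and 7.84 ± 1.51 in the Control library, 38.1-fold higher in Fe'i than in Control. rnasel3 was at 181 ± 9.71 FPKM in the Fe'i library, 43.8 ± 3.51 in the Cavendish library and 29.7 ± 3.09 in the Control library. Both ribonucleases had their lowest level in the Control library.

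leg1.2 and leg1.1 encode proteins of the liver-enriched Leg1 family. leg1.2 was at 190.3 ± 6.8 FPKM in the Fe'i library, 30.2 ± 2.18 in the Cavendish library and 15.9 ± 1.71 in the Control library, and leg1.1 at 323 ± 8.95 FPKM in the Fe'i library, 86.4 ± 3.69 in the Cavendish library and 56.4 ± 3.21 in the Control library. ahsg2, a fetuin that liver secretes in mammals, was at 207 ± 6.79 FPKM in the Fe'i library, 34.1 ± 2.23 in the Cavendish library and 23.5 ± 1.99 in the Control library. All 3 were higher in Fe'i than in both other libraries. The part of liver tissue in their levels was not tested. ggact.1, a gamma-glutamylaminecyclotransferase gene, was at 34.5 ± 2.5 FPKM in the Fe'i library, 25.1 ± 1.71 in the Cavendish library and 3.7 ± 0.70 in the Control library. Its log2 ratio was 2.92 with a counting SE of 0.12.

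Leaving clone-named genes aside, the lowest ratio of a called gene was that of cyp26a1, which breaks down retinoic acid (log2 -4.36), followed by genes of immunity, detoxification and bile acid control. igl3v2, an immunoglobulin light chain segment, was at 4.12 ± 3.55 FPKM in the Fe'i library, 2.0 ± 1.96 in the Cavendish library and 97.1 ± 13.7 in the Control library. pvalb9, a parvalbumin (a calcium-buffering protein), was at 9.55 ± 2.28 FPKM in the Fe'i library, 16.7 ± 2.46 in the Cavendish library and 103 ± 7.58 in the Control library. tpmt.2, a thiopurine methyltransferase, was at 0.699 ± 0.771 FPKM in the Fe'i library, 10.9 ± 1.98 in the Cavendish library and 11.4 ± 2.2 in the Control library. In each of these the Control library was higher than the Fe'i library with intervals apart. cart3, a neuropeptide of the CART family, was at 2.98 ± 1.49 FPKM in the Fe'i library, 18.4 ± 2.99 in the Cavendish library and 20.8 ± 3.39 in the Control library, and bpifcl, of a family of lipid-binding defence proteins, at 2.59 ± 3.02 FPKM in the Fe'i library, 2.16 ± 2.19 in the Cavendish library and 17.6 ± 8.72 in the Control library. ugt5a2, a UDP-glucuronosyltransferase, was at 10.9 ± 1.28 FPKM in the Fe'i library, 24.7 ± 1.77 in the Cavendish library and 61.2 ± 3.52 in the Control library.

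In absolute level, the largest gains were those of apoa2, fabp10a, ctsl.1, tfa, apoa1b, mt-nd3 and apoc1. Of these, apoa2, fabp10a and tfa were liver markers and ctsl.1 a marker of lysosome-rich enterocytes. apoa1b stood at 4761 ± 199.97 FPKM in the Fe'i library, 2724 ± 115 in the Cavendish library and 1321 ± 57.2 in the Control library, and apoc1, an apolipoprotein of triglyceride-rich particles, at 4361 ± 141 FPKM in the Fe'i library, 2719 ± 87.7 in the Cavendish library and 2116 ± 69.1 in the Control library. 3 clone-named genes, zgc:158463, CR318588.4 and CT027638.1, completed the 10. The largest losses were led by enterocyte products. fabp1b.1, a fatty acid binding protein of enterocytes, was at 4657 ± 74 FPKM in the Fe'i library, 5615 ± 65.6 in the Cavendish library and 11555 ± 99.7 in the Control library. afp4, named for its likeness to an antifreeze protein, was at 2355 ± 106 FPKM in the Fe'i library, 1967 ± 87.3 in the Cavendish library and 7962 ± 335 in the Control library. chia.2, an acidic chitinase, was at 2723 ± 114 FPKM in the Fe'i library, 4011 ± 167 in the Cavendish library and 5516 ± 229 in the Control library, and tcnl, a transcobalamin-like vitamin B12 carrier, at 739 ± 22.7 FPKM in the Fe'i library, 2395 ± 33.2 in the Cavendish library and 1628 ± 29.3 in the Control library. The Control library was highest for the first 3 of these and the Cavendish library for tcnl.

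Genes of the endocytic and lysosomal pathway of lysosome-rich enterocytes were higher in the Fe'i library at several steps. Of 8 markers of these cells 7 were called higher and none lower, with a median log2 ratio of 1.54, and the marker sum was 26091 FPKM in the Fe'i, 9301 in the Cavendish and 12724 in the Control library. At the receptor step, cubn (cubilin) was at 43.3 ± 1.07 FPKM in the Fe'i library, 12 ± 0.444 in the Cavendish library and 11.5 ± 0.469 in the Control library, and its membrane partner amn (amnionless) at 92.8 ± 4.28 FPKM in the Fe'i library, 20.5 ± 1.62 in the Cavendish library and 25.4 ± 1.94 in the Control library. dab2, the adaptor that links cubilin to clathrin, was at 214 ± 8.23 FPKM in the Fe'i library, 42.6 ± 2.38 in the Cavendish library and 88.5 ± 4.0 in the Control library. lrp2b, a megalin of the LDL receptor family, was at 36.4 ± 1.84 FPKM in the Fe'i library, 7.25 ± 0.496 in the Cavendish library and 15.7 ± 0.899 in the Control library. tmigd1, an adhesion protein of epithelial cells, was at 129.6 ± 7.71 FPKM in the Fe'i library, 134 ± 6.85 in the Cavendish library and 63.6 ± 4.31 in the Control library. For dab2 and lrp2b the Fe'i library was highest and the Cavendish library lowest, while tmigd1 was about level between the banana libraries. fabp6, the ileal bile acid binding protein, was at 17303 ± 139 FPKM in the Fe'i library, 7457 ± 74.2 in the Cavendish library and 10271 ± 92.2 in the Control library, under the 2-fold limit against Control.

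The general endocytic machinery in the same list was near level. rab7 stood at 30.1 ± 2.51 FPKM in the Fe'i library against 29.7 ± 2.23 in the Control library, rab11a at 91.7 ± 2.91 FPKM in the Fe'i library against 92.5 ± 2.52 in the Control library and the clathrin adaptor subunit ap2m1a at 75.8 ± 4.66 FPKM in the Fe'i library against 76.9 ± 4.34 in the Control library. Of the 17 measured genes of endocytic receptors and adaptors, 5 were called higher and none lower, at a median of 0.07. The 5 were amn, cubn, dab2, lrp2b and tmigd1, which are also markers of these cells.

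Of 20 lysosomal proteases, 8 were called higher and none lower, and 16 had a ratio above 0 (median 0.84). The most abundant were ctsl.1, a cathepsin L, at 5631 ± 215 FPKM in the Fe'i library, 827 ± 34.1 in the Cavendish library and 1507 ± 61.8 in the Control library, and ctsbb, a cathepsin B, at 2640.1 ± 116 FPKM in the Fe'i library, 802 ± 44.9 in the Cavendish library and 741 ± 42.2 in the Control library. lgmn, legumain, a protease that cleaves after asparagine, was at 1629 ± 68.7 FPKM in the Fe'i library, 398 ± 17.4 in the Cavendish library and 473 ± 20.6 in the Control library (3.44-fold higher than Control). ctsz, a carboxypeptidase, was at 1055 ± 45.9 FPKM in the Fe'i library, 326 ± 14.9 in the Cavendish library and 353 ± 16.3 in the Control library, and cpvl, another carboxypeptidase, at 199.7 ± 10.18 FPKM in the Fe'i library, 50.4 ± 3.21 in the Cavendish library and 63.3 ± 3.93 in the Control library. ctsh, an aminopeptidase, was at 709 ± 32.1 FPKM in the Fe'i library, 242 ± 11.8 in the Cavendish library and 319.9 ± 15.3 in the Control library. In these 4 the Fe'i level was far above both other libraries, whose levels lay nearer to each other. Of 15 measured cathepsin genes 5 were called higher and none lower. Among those not called, ctss2.2 was at 81.5 ± 5.82 FPKM in the Fe'i library against 103 ± 6.23 in the Control library. ctsk, also uncalled, was at 31 ± 2.81 FPKM in the Fe'i library against 49.7 ± 3.4 in the Control library.

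Of 37 hydrolases of sugars and lipids 5 were called higher and none lower, with 32 ratios above 0 (median 0.60). galca, a galactosylceramidase, was at 53.5 ± 2.39 FPKM in the Fe'i library, 16.9 ± 1.09 in the Cavendish library and 14.1 ± 1.07 in the Control library. man2b1, lysosomal alpha-mannosidase, was at 98.5 ± 5.04 FPKM in the Fe'i library, 26.4 ± 1.66 in the Cavendish library and 28.8 ± 1.86 in the Control library, fuca1.1, a fucosidase, at 90.9 ± 4.04 FPKM in the Fe'i library, 26.5 ± 1.77 in the Cavendish library and 33 ± 2.12 in the Control library, and hexb, a subunit of beta-hexosaminidase, at 459 ± 18.4 FPKM in the Fe'i library, 193 ± 8.23 in the Cavendish library and 194 ± 8.48 in the Control library. As with the proteases, the Cavendish and Control levels of these genes lay near each other. glb1l, a galactosidase-like gene, was the fifth, at 11.9 ± 1.26 FPKM in the Fe'i library and 4.59 ± 0.614 in the Control library.

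Fewer genes of the lysosomal membrane were called. Of 31 genes of the membrane and proton pump 1 was called higher, ctns, the cystine exporter, at 28.3 ± 2.47 FPKM in the Fe'i library, 10.5 ± 1.2 in the Cavendish library and 13.4 ± 1.46 in the Control library. A further 27 had a ratio above 0 without a call, and the median was 0.46. lamp2, a main membrane glycoprotein, was at 172 ± 10.8 FPKM in the Fe'i library, 87.5 ± 5.79 in the Cavendish library and 85.5 ± 6.1 in the Control library, with a ratio just under the limit. All 20 measured genes of the V-ATPase, the pump that acidifies the lysosome, went uncalled, at a median of 0.46, with the pore subunit atp6v0ca at 326 ± 13.3 FPKM in the Fe'i library and 226 ± 9.26 in the Control library. Among 22 regulators of lysosome and autophagy genes the 1 called was tfeb, a transcription factor known in mammals to drive lysosomal genes, at 22.2 ± 2.23 FPKM in the Fe'i library, 5.51 ± 0.827 in the Cavendish library and 10.16 ± 1.33 in the Control library. The autophagy receptor sqstm1 was at 54.6 ± 3.97 FPKM in the Fe'i library and 67.9 ± 4.04 in the Control library, and the list's median was 0.06.

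**Figure D4:**
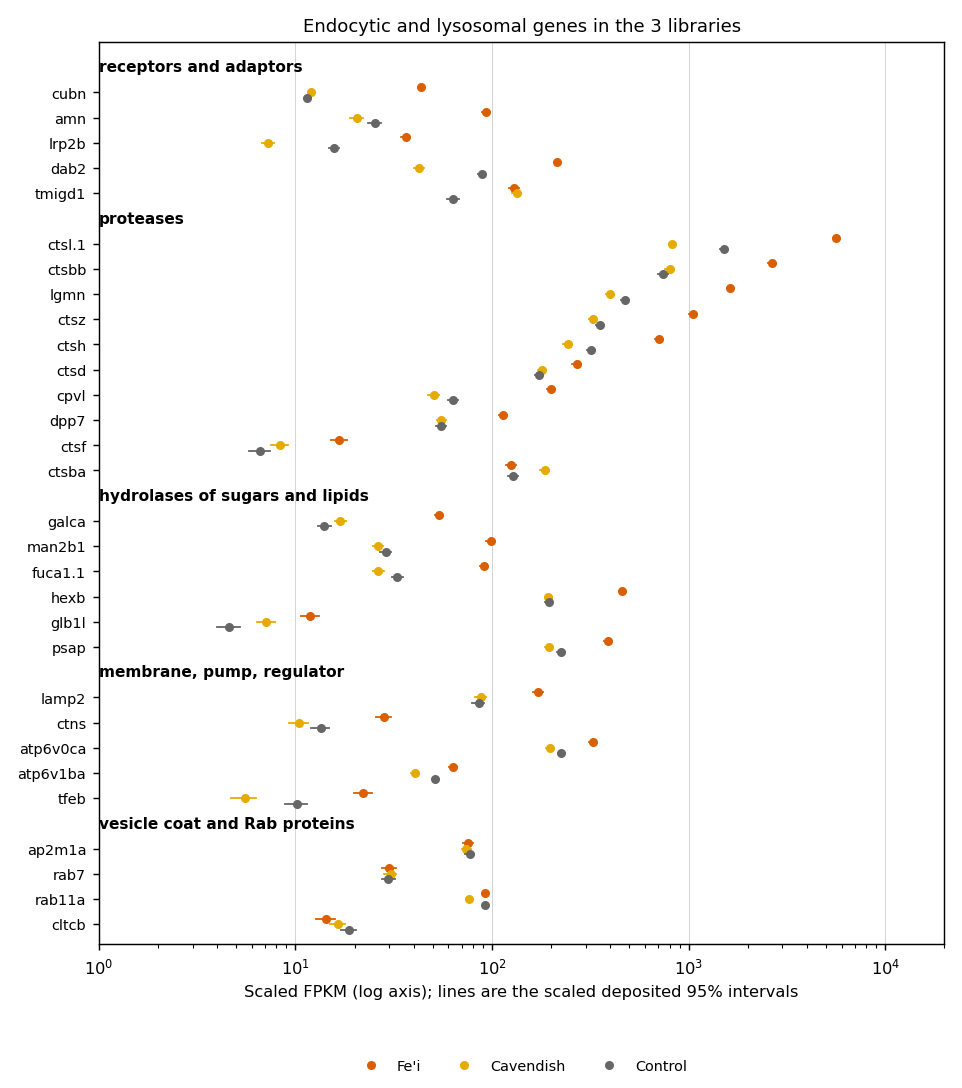
Scaled FPKM on a log axis of receptors, proteases, hydrolases, membrane and pump genes and vesicle coat and Rab genes in the Fe'i, Cavendish and Control libraries (1 library each), with lines for the deposited 95% intervals. The Fe'i points of the receptors and of most proteases and hydrolases lie to the right of the Control points, while ap2m1a, rab7 and rab11a overlap.

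Transcription factors and carriers of the posterior gut came next. Of 28 posterior gut and ileal genes, 8 were called higher and 1 lower, and 26 had a ratio above 0 (median 0.61). Those higher included amn and cubn, already counted above, and fgf19, slc51a and slc10a2, counted again among the bile acid genes. Of these 28, 3 reached 1 FPKM in the Fe'i library only. Of 48 hox genes in the files 24 were measured, and 6 of them reached 1 FPKM in the Fe'i library only, so that their sign was set by the entry limit. The 24 had ratios above 0 with a median of 0.53, and 4 were called higher. hoxb13a, of the most posterior group among the 4 called, was at 6.97 ± 1.46 FPKM in the Fe'i library, 1.4 ± 0.519 in the Cavendish library and 1.33 ± 0.548 in the Control library. hoxc11a was at 4.69 ± 0.974 FPKM in the Fe'i library, 2.1 ± 0.537 in the Cavendish library and 0.725 ± 0.329 in the Control library, hoxa9a at 3.02 ± 0.796 FPKM in the Fe'i library, 2.11 ± 0.681 in the Cavendish library and 0.655 ± 0.35 in the Control library. Levels of these factors were low throughout, and in hoxb13a the Cavendish and Control libraries were alike. slc51a, a subunit of the basolateral bile acid exporter, was at 43.5 ± 3.47 FPKM in the Fe'i library, 34.6 ± 2.55 in the Cavendish library and 16.4 ± 1.73 in the Control library, and slc10a2, the apical bile acid carrier, at 190 ± 5.77 FPKM in the Fe'i library, 186 ± 4.6 in the Cavendish library and 88.4 ± 3.38 in the Control library. For both carriers the 2 banana libraries stood above the Control library.

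The 1 gene called lower was pyyb, which encodes the gut hormone peptide YY, at 101 ± 8.63 FPKM in the Fe'i library, 133 ± 7.89 in the Cavendish library and 207 ± 10.5 in the Control library. Of 28 anterior gut genes 2 were called higher and 4 lower, and 21 had a ratio below 0 (median -0.32). The 4 lower genes were apoa4a, apoa4b.2, fabp1b.1 and chia.2. apoa4b.2, an apolipoprotein of chylomicron-like particles, was at 2522 ± 77 FPKM in the Fe'i library, 2743 ± 80.1 in the Cavendish library and 7922 ± 224 in the Control library. The 2 higher genes were apoa1b, which the liver makes too, and nkx2.3, a factor of gut mesenchyme, at 7.19 ± 1.5 FPKM in the Fe'i library, 11.8 ± 1.58 in the Cavendish library and 2.77 ± 0.806 in the Control library. Which part of the gut each library holds is not given, and its part in these results was not tested.

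Iron and heme genes had 6 of 33 members called higher and none lower, at a median of 0.24. hmox1a, the heme oxygenase that releases iron from heme, was at 66.8 ± 4.87 FPKM in the Fe'i library, 9.18 ± 1.25 in the Cavendish library and 5.53 ± 1.03 in the Control library. slc40a1, ferroportin, which exports iron from cells, was at 113 ± 2.98 FPKM in the Fe'i library, 31.4 ± 1.25 in the Cavendish library and 42.1 ± 1.56 in the Control library, and slc11a2, the importer of ferrous iron, at 86.9 ± 4.11 FPKM in the Fe'i library and 38.5 ± 2.37 in the Control library. For hmox1a and slc40a1 the Fe'i library stood far above both others. The other called genes were hpx, tfa and tfr2, all genes that the liver expresses. tfr2, an iron sensor of hepatocytes, was at 1.86 ± 0.496 FPKM in the Fe'i library, 0.521 ± 0.209 in the Cavendish library and 0.169 ± 0.128 in the Control library. fth1a, the ferritin heavy chain that stores iron in cells, was not called and stood at 1825 ± 79.2 FPKM in the Fe'i library, 1941 ± 82.6 in the Cavendish library and 1877 ± 80.4 in the Control library. tfr1b, a transferrin receptor, was at 31.4 ± 2.18 FPKM in the Fe'i library and 32.4 ± 2.04 in the Control library, and hamp, the hormone hepcidin, at 4.94 ± 1.86 FPKM in the Fe'i library and 4.03 ± 1.46 in the Control library. The levels of these 3 in the Fe'i and Control libraries were close.

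Heme synthesis had 1 of 12 genes called in each direction. alas2, which starts the pathway in erythroid cells, was at 3.07 ± 0.741 FPKM in the Fe'i library, 3.17 ± 0.574 in the Cavendish library and 0.975 ± 0.343 in the Control library, and cpox, coproporphyrinogen oxidase, at 13.9 ± 1.35 FPKM in the Fe'i library, 23 ± 1.39 in the Cavendish library and 30.3 ± 1.71 in the Control library. alas1, the enzyme that other cells use, was at 435 ± 19.7 FPKM in the Fe'i library and 456 ± 20.1 in the Control library. The globin genes of chromosome 3 stood together. hbba2 was at 22.6 ± 3.99 FPKM in the Fe'i library, 14.3 ± 2.56 in the Cavendish library and 2.85 ± 1.22 in the Control library, and hbaa2 at 18.4 ± 4.12 FPKM in the Fe'i library, 9.55 ± 2.41 in the Cavendish library and 2.49 ± 1.3 in the Control library. In this cluster 5 adult globin genes were all called higher, and Cavendish lay between the other libraries for each, as it did for the erythrocyte marker sum. Of 16 erythrocyte genes 7 were called higher and none lower.

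In lipid transport, 17 of 52 genes were called higher and 7 lower (median 0.42), and the 2 directions held different kinds of gene. Those higher included products of the liver. cetp, the cholesteryl ester transfer protein, was at 21.9 ± 2.19 FPKM in the Fe'i library, 7.08 ± 0.956 in the Cavendish library and 2.98 ± 0.649 in the Control library, apom, an apolipoprotein of HDL, at 185 ± 12.6 FPKM in the Fe'i library, 144 ± 9.28 in the Cavendish library and 39.5 ± 4.27 in the Control library, and lipca, hepatic lipase, at 49.8 ± 3.54 FPKM in the Fe'i library, 18.7 ± 1.62 in the Cavendish library and 17.1 ± 1.63 in the Control library. lpl, lipoprotein lipase, was at 40.3 ± 1.89 FPKM in the Fe'i library, 12.3 ± 0.845 in the Cavendish library and 14.3 ± 0.982 in the Control library. The Fe'i library was highest in all 4. The Cavendish level lay below Control for lpl and close to it for lipca. The part of liver tissue in these values was not tested.

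Those lower included genes that enterocytes use to export lipid. sar1b, the GTPase that buds chylomicrons from the endoplasmic reticulum, was at 48.8 ± 2.76 FPKM in the Fe'i library, 39.1 ± 1.97 in the Cavendish library and 99.2 ± 3.37 in the Control library. abcg5, which with its partner returns sterols to the lumen, was at 17.9 ± 1.67 FPKM in the Fe'i library, 22.1 ± 1.61 in the Cavendish library and 42.7 ± 2.66 in the Control library. Both banana libraries were below Control for these genes. mttp, which loads lipid onto apolipoprotein B, was at 149 ± 6.62 FPKM in the Fe'i library, 123 ± 5.24 in the Cavendish library and 228 ± 9.12 in the Control library, and apoa1a at 7079 ± 52.4 FPKM in the Fe'i library, 7325 ± 42.9 in the Cavendish library and 11219 ± 57 in the Control library, neither called. Of 16 apolipoprotein genes 8 were called higher and 3 lower. One of the lower genes, apoeb, was at 295 ± 12.4 FPKM in the Fe'i, 500 ± 18.7 in the Cavendish and 1559 ± 48.8 in the Control library. Of 11 fabp genes 3 were called higher and 1 lower, and fabp7a, known as the brain type, was at 302 ± 18.4 FPKM in the Fe'i library, 30.6 ± 3.75 in the Cavendish library and 145 ± 10.1 in the Control library, high in the Fe'i and Control libraries and low in the Cavendish library.

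Among 38 genes of fatty acid and triglyceride synthesis, 2 were called in each direction. The larger higher call was thrsp, at 28.4 ± 6.06 FPKM in the Fe'i, 35.9 ± 5.55 in the Cavendish and 0.236 ± 0.472 in the Control library. The larger lower call was me1, at 10.9 ± 1.43 FPKM in the Fe'i, 8.47 ± 1.02 in the Cavendish and 50.1 ± 3.22 in the Control library. mogat3a, a monoacylglycerol acyltransferase, was at 12.3 ± 2.4 FPKM in the Fe'i library, 6.24 ± 1.38 in the Cavendish library and 2.5 ± 0.93 in the Control library. plin2, a lipid droplet coat protein, was at 17.7 ± 2.04 FPKM in the Fe'i library, 26.4 ± 2.09 in the Cavendish library and 39 ± 2.71 in the Control library. Fatty acid synthase (fasn) was at 7.62 ± 1.12 FPKM in the Fe'i library, 2.49 ± 0.665 in the Cavendish library and 4.25 ± 0.897 in the Control library, without a call. Of 44 genes of fatty acid oxidation and ketone bodies, 5 were called higher and none lower. cpt1b, a carnitine palmitoyltransferase known as the muscle type, was at 10.8 ± 1.15 FPKM in the Fe'i library, 2.98 ± 0.463 in the Cavendish library and 2.09 ± 0.413 in the Control library. oxct1a, which activates ketone bodies, was at 7.06 ± 1.81 FPKM in the Fe'i library, 0.673 ± 0.405 in the Cavendish library and 1.9 ± 0.737 in the Control library, and the mitochondrial carriers ucp1 and ucp2 were at 866 ± 37.1 FPKM in the Fe'i library, 717 ± 29.5 in the Cavendish library and 330.3 ± 14.7 in the Control library, and 218 ± 11.3 FPKM in the Fe'i library, 161 ± 8.07 in the Cavendish library and 95.1 ± 5.56 in the Control library. In oxct1a the Cavendish level was the lowest of the 3, while for both carriers Cavendish lay nearer to Fe'i.

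Cholesterol genes were near level between the libraries compared. Of 35 genes 1 was called in each direction (median 0.06), and neither belongs to the synthetic pathway itself. Each reached 1 FPKM in only 1 of the 2 libraries compared, so the entry limit had fixed its direction. soat2, which esterifies cholesterol in intestine and liver, was at 2.21 ± 0.608 FPKM in the Fe'i library, 1.53 ± 0.406 in the Cavendish library and 0.132 ± 0.203 in the Control library, and mylipb, of the family that degrades the LDL receptor, at 0.424 ± 0.255 FPKM in the Fe'i library, 2.29 ± 0.48 in the Cavendish library and 3.57 ± 0.641 in the Control library. hmgcra, the rate-limiting enzyme, was at 25.1 ± 1.72 FPKM in the Fe'i library, 93.9 ± 4.34 in the Cavendish library and 19.3 ± 1.3 in the Control library, so that Cavendish was high and Fe'i and Control were close.

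The bile acid list had 5 of 25 members called higher and 2 called lower. fgf19, the hormone of the ileum that represses bile acid synthesis, was at 10.4 ± 2.02 FPKM in the Fe'i library, 2.52 ± 0.81 in the Cavendish library and 1.38 ± 0.676 in the Control library. nr0b2b, a repressor related to mammalian Shp, was called lower, at 0.293 ± 0.415 FPKM in the Fe'i library, 0.664 ± 0.502 in the Cavendish library and 9.22 ± 2.01 in the Control library. abcb11b, of the bile salt export pump family, was at 4.47 ± 0.459 FPKM in the Fe'i library, 3.15 ± 0.312 in the Cavendish library and 0.881 ± 0.166 in the Control library, and nr1h5, a receptor related to the bile acid receptor, at 5.76 ± 1.11 FPKM in the Fe'i library, 3.68 ± 0.71 in the Cavendish library and 2.2 ± 0.596 in the Control library. nr1h4, the bile acid receptor itself, was at 29.8 ± 2.15 FPKM in the Fe'i library, 21.3 ± 1.46 in the Cavendish library and 22.6 ± 1.61 in the Control library, and nr0b2a, a paralogue of the repressor nr0b2b, at 83.2 ± 2.85 FPKM in the Fe'i library, 48.2 ± 1.73 in the Cavendish library and 62.7 ± 2.13 in the Control library. Neither of these was called. cyp7a1, the first enzyme of bile acid synthesis, stood at 4.46 ± 0.839 FPKM in the Fe'i library, 364 ± 6.14 in the Cavendish library and 34.3 ± 2.01 in the Control library. The 10 liver markers were all called higher in the Fe'i library. The part of liver tissue in the cyp7a1 level was not tested. Among 44 nuclear receptors, nr0b1 was called higher, at 11.5 ± 1.63 FPKM in the Fe'i library, 5.66 ± 0.91 in the Cavendish library and 2.96 ± 0.718 in the Control library, and nr1d1, a repressor in the clock, lower, at 2.3 ± 0.491 FPKM in the Fe'i library, 1.55 ± 0.319 in the Cavendish library and 6.8 ± 0.723 in the Control library.

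In carotenoid and retinoid handling 4 of 45 genes were called higher and 1 lower, against 5.18% and 1.88% of all genes (median -0.09). rbp2a, the abundant cellular retinol binding protein of enterocytes, was at 6872 ± 68.4 FPKM in the Fe'i library, 6181 ± 52.2 in the Cavendish library and 7457 ± 61.2 in the Control library. bco2l, of the dioxygenases that cleave carotenoids off centre, was at 13.4 ± 1.4 FPKM in the Fe'i library, 7.26 ± 0.824 in the Cavendish library and 11.2 ± 1.1 in the Control library. Neither was called. The higher genes were rbp2b, a paralogue of rbp2a, at 41.7 ± 3.74 FPKM in the Fe'i library, 28.1 ± 2.47 in the Cavendish library and 10 ± 1.57 in the Control library, rbp4, the plasma carrier of retinol, at 1444 ± 62.1 FPKM in the Fe'i library and 666 ± 30.1 in the Control library, ttr, a plasma carrier of thyroid hormone and of the retinol complex, at 48 ± 5.38 FPKM in the Fe'i library, 15.4 ± 2.37 in the Cavendish library and 9.24 ± 1.94 in the Control library, and lpl. ttr and rbp4 are made by the liver.

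None of the measured enzymes that make retinoic acid, or of its receptors, was called. aldh1a2, which makes retinoic acid, was at 30.2 ± 2.11 FPKM in the Fe'i library, 24.8 ± 1.6 in the Cavendish library and 49.6 ± 2.77 in the Control library, and rdh10a, an earlier step, at 2.99 ± 0.883 FPKM in the Fe'i library, 3.26 ± 0.667 in the Cavendish library and 1.16 ± 0.441 in the Control library. The receptor raraa was at 2.02 ± 0.561 FPKM in the Fe'i library, 3.73 ± 0.588 in the Cavendish library and 3.65 ± 0.628 in the Control library and rarab at 3.14 ± 0.727 FPKM in the Fe'i library, 3.15 ± 0.587 in the Cavendish library and 3.44 ± 0.654 in the Control library. dgat1a, an acyltransferase that esterifies lipid and, in mammals, retinol, was at 47.1 ± 2.29 FPKM in the Fe'i library, 70.4 ± 2.23 in the Cavendish library and 94.1 ± 2.79 in the Control library, just short of a call. cyp26a1 itself stood at 2.65 ± 0.736 FPKM in the Fe'i library, 1.2 ± 0.401 in the Cavendish library and 74 ± 4.37 in the Control library, so that both banana libraries were low.

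**Figure D5:**
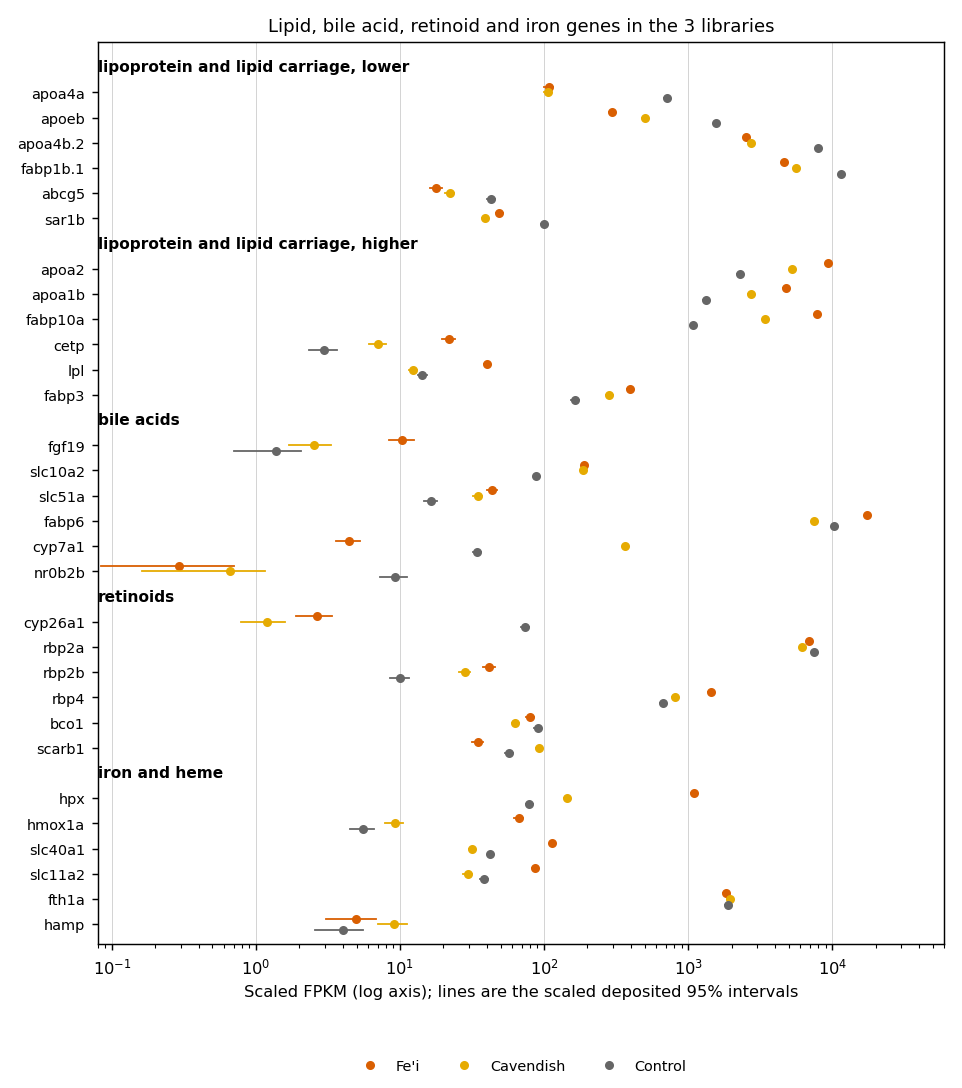
Scaled FPKM on a log axis for selected genes of lipid transport, bile acids, retinoids and iron in the Fe'i, Cavendish and Control libraries, with bars for the deposited 95% intervals. cyp26a1 is low in both banana libraries, and cyp7a1 is at 4.46 FPKM in the Fe'i, 364 in the Cavendish and 34.3 in the Control library.

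Of 94 cytochrome P450 and conjugation genes 8 were called higher and 9 lower. All 5 measured cyp2p genes, neighbours on chromosome 20 (25563105 to 25593607 over cyp2p6, cyp2p7, cyp2p8, cyp2p9 and cyp2p10), were called lower, with the adjoining cyp2j20. Of these, cyp2p7 and cyp2p8 reached 1 FPKM in the Control library only, so the entry limit had fixed their direction. cyp2p9 was at 7.09 ± 0.98 FPKM in the Fe'i library, 26.4 ± 1.5 in the Cavendish library and 58.4 ± 2.39 in the Control library. cyp2p8 was at 0.339 ± 0.24 FPKM in the Fe'i library, 4.86 ± 0.738 in the Cavendish library and 15.7 ± 1.42 in the Control library, and cyp2p6, the highest of the cluster in the Fe'i library, at 20.9 ± 1.61 FPKM in the Fe'i library, 26 ± 1.43 in the Cavendish library and 52.2 ± 2.17 in the Control library. For these 3 the Control library was the highest, and members of so close a cluster share reads. cyp2k22 went the other way, at 200.03 ± 10.22 FPKM in the Fe'i library, 16.1 ± 1.58 in the Cavendish library and 66.1 ± 4.09 in the Control library, with Cavendish below both. cyp1a, the target of the aryl hydrocarbon receptor, was at 30.4 ± 2.28 FPKM in the Fe'i library and 26.6 ± 1.88 in the Control library.

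Antioxidant and Nrf2 target genes had 5 of 57 members called higher and none lower, at a median of -0.11. gstp2, a glutathione transferase, was at 50.8 ± 4.79 FPKM in the Fe'i library, 24.8 ± 2.69 in the Cavendish library and 0.33 ± 0.33 in the Control library. Other glutathione transferases, gstt1a and gstm.2, were called higher too. gstt1a was at 132 ± 8.72 FPKM in the Fe'i library, 63.2 ± 4.6 in the Cavendish library and 21.2 ± 2.51 in the Control library. gstm.2 was at 13.5 ± 1.72 FPKM in the Fe'i library, 18.8 ± 1.62 in the Cavendish library and 5.74 ± 0.95 in the Control library. gstp1, a paralogue of gstp2, was at 1186 ± 23 FPKM in the Fe'i library, 1491 ± 20.6 in the Cavendish library and 1808 ± 24.3 in the Control library. Of the common Nrf2 targets, nqo1 was at 55.1 ± 4.22 FPKM in the Fe'i library and 51.2 ± 3.58 in the Control library. The peroxiredoxin prdx1 was at 47.6 ± 4.5 FPKM in the Fe'i library and 83.7 ± 5.26 in the Control library. Neither was called. hmox1a, counted above with the iron and heme genes and not in this list, was called higher. It was at 66.8 ± 4.87 FPKM in the Fe'i library and 5.53 ± 1.03 in the Control library. Of 16 gst genes 3 were called higher and none lower.

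The liver and complement lists had the most genes called. Of 40 liver proteins 35 were called higher and 2 lower (median 1.75), and of 55 complement and coagulation genes 42 were called higher and none lower (median 1.69). c4, a component of the classical pathway, was at 49.7 ± 5.23 FPKM in the Fe'i library, 23.5 ± 2.83 in the Cavendish library and 7.8 ± 1.41 in the Control library, serping1, the inhibitor of the first component, at 168 ± 8.6 FPKM in the Fe'i library, 59.4 ± 3.46 in the Cavendish library and 34.4 ± 2.47 in the Control library, and serpinc1, antithrombin, at 88 ± 3.33 FPKM in the Fe'i library, 37.5 ± 1.74 in the Cavendish library and 18.9 ± 1.34 in the Control library. The 13 uncalled members included mbl2, the most abundant of them, at 561 ± 20.5 FPKM in the Fe'i library against 750 ± 25.1 in the Control library. c1qa was at 9.06 ± 1.68 FPKM in the Fe'i library against 16 ± 1.95 in the Control library and cfd at 259 ± 10.5 FPKM in the Fe'i library against 456 ± 12.1 in the Control library. 9 of 16 measured serpin genes were called higher.

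Enzymes that break down amino acids followed, with 12 of 47 called higher and none lower (median 0.42). agxtb, an alanine-glyoxylate aminotransferase, was at 160.3 ± 8.63 FPKM in the Fe'i library, 65.6 ± 4.0 in the Cavendish library and 21.5 ± 2.07 in the Control library. pah, phenylalanine hydroxylase, was at 43 ± 2.41 FPKM in the Fe'i library, 10.3 ± 0.944 in the Cavendish library and 7.07 ± 0.84 in the Control library, and uox, urate oxidase, at 378 ± 17.4 FPKM in the Fe'i library, 139 ± 6.92 in the Cavendish library and 73 ± 4.94 in the Control library. All 3 are enzymes of the liver, and all were highest in the Fe'i library. The part of liver tissue in these values was not tested. Of 36 genes of insulin and growth factor signalling 5 were called higher and 3 lower (median 0.08). Among those higher, igf1, a growth factor that the liver secretes, was at 11.7 ± 1.81 FPKM in the Fe'i library, 6.46 ± 1.08 in the Cavendish library and 1.71 ± 0.598 in the Control library, and igfbp2a, a binding protein for it, at 33.8 ± 2.5 FPKM in the Fe'i library, 13.5 ± 1.27 in the Cavendish library and 8.84 ± 1.11 in the Control library. Among those lower, eif4ebp3l, of a family that restrains translation, was at 17.4 ± 2.41 FPKM in the Fe'i library, 50.4 ± 3.76 in the Cavendish library and 42.9 ± 3.57 in the Control library.

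Glycogen and glucose genes were split. gys2, the liver glycogen synthase, was at 11.3 ± 1.35 FPKM in the Fe'i library, 4.99 ± 0.699 in the Cavendish library and 1.63 ± 0.425 in the Control library, and pygl, the liver phosphorylase, at 27 ± 2.08 FPKM in the Fe'i library, 19.7 ± 1.45 in the Cavendish library and 6.5 ± 0.789 in the Control library. Of 24 genes of gluconeogenesis and glycogen 5 were called higher and 1 lower, the lower one being pck1, which makes phosphoenolpyruvate, at 111 ± 6.17 FPKM in the Fe'i library, 258 ± 11.3 in the Cavendish library and 473 ± 20.3 in the Control library. Of 42 genes of sugar uptake and glycolysis 5 were called higher and 3 lower. The lower ones were slc2a12, a glucose carrier at 5.48 ± 0.904 FPKM in the Fe'i library and 13.4 ± 1.28 in the Control library, and the pyruvate dehydrogenase kinases pdk2a and pdk2b, at 7.18 ± 0.758 FPKM in the Fe'i library and 16.9 ± 0.998 in the Control library, and 19 ± 1.82 FPKM in the Fe'i library and 39.9 ± 3.14 in the Control library.

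Apart from the abundant vitellogenin (yolk protein) genes given below, genes of the egg envelope and oocyte stood at low levels. Most were higher in the Fe'i library than in both others. Of 24 measured members 20 were called higher and none lower, but most reached measurement through the Fe'i library alone, as given above, so the count says little by itself. All 14 measured zona pellucida (egg envelope) genes were called higher, a count with the same limit. Among them zp2.6 was at 0.463 FPKM and zp2.5 at 0.14 FPKM in the Control library, so the entry limit fixed their direction. zp2.3 was at 14.9 ± 1.96 FPKM in the Fe'i library, 0.20 ± 0.179 in the Cavendish library and 0.741 ± 0.371 in the Control library, and org, an oogenesis-related gene, at 4.96 ± 1.46 FPKM in the Fe'i library, 0.348 ± 0.311 in the Cavendish library and 0.24 ± 0.277 in the Control library. buc, which organises the germ plasm of the oocyte, was at 2.38 ± 0.58 FPKM in the Fe'i library, 0.443 ± 0.321 in the Cavendish library and 0.298 ± 0.235 in the Control library. h2af1al, a histone variant of the egg, was at 23.1 ± 4.62 FPKM in the Fe'i library, 2.11 ± 1.13 in the Cavendish library and 2.22 ± 1.23 in the Control library. cldnd and cldng, claudins of the tight junction list, had the same profile, with cldnd at 6.2 ± 1.82 FPKM in the Fe'i library, 0.0854 ± 0.171 in the Cavendish library and 0.88 ± 0.587 in the Control library and cldng at 4.53 ± 1.82 FPKM in the Fe'i library, 0.374 ± 0.457 in the Cavendish library and 0.67 ± 0.737 in the Control library. The vitellogenin genes of the list were abundant in all 3 libraries and not called. vtg2 was at 3719 ± 14.8 FPKM in the Fe'i library, 2040 ± 8.75 in the Cavendish library and 2193 ± 9.81 in the Control library. vtg3 was at 745 ± 32.1 FPKM in the Fe'i library, 291 ± 12.5 in the Cavendish library and 385 ± 17.2 in the Control library. Sex and number of fish are not given, and the part of egg-containing tissue in these values was not tested.

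Immune genes differed by class. Of 49 interferon response genes 4 were called higher and 1 lower (median 0.22). ifi30, a lysosomal thiol reductase, was at 1229.6 ± 54.9 FPKM in the Fe'i library, 563 ± 25.9 in the Cavendish library and 406 ± 19.7 in the Control library, rsad2, an antiviral enzyme, at 42.2 ± 2.93 FPKM in the Fe'i library, 8.72 ± 1.07 in the Cavendish library and 16.5 ± 1.57 in the Control library, and ifit9 at 3.34 ± 0.861 FPKM in the Fe'i library, 0.646 ± 0.297 in the Cavendish library and 0.984 ± 0.394 in the Control library. ifng1r, a receptor subunit for interferon gamma, was called lower, at 3.24 ± 1.88 FPKM in the Fe'i library, 6.03 ± 2.09 in the Cavendish library and 11 ± 2.99 in the Control library. In the Cavendish library rsad2 and ifit9 stood below Control. Of 26 lymphocyte genes none was called, and 21 had a ratio below 0 (median -0.46), with the T cell receptor chain cd247 at 13.1 ± 5.85 FPKM in the Fe'i library and 18.8 ± 6.01 in the Control library. Of 14 immunoglobulin variable segments 3 were called lower and none higher.

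Of 31 macrophage and neutrophil genes 5 were called higher and 1 lower, with 13 ratios above 0 and 18 below (median -0.23). The higher ones were mpx, prg4b and 3 described above, rnasel2, rnasel3 and apoc1. The 5 measured macrophage markers had ratios below 0 (median -0.72), and the 5 measured neutrophil markers had ratios above 0 (median 0.37). mpx, the peroxidase of neutrophils, was at 56.4 ± 2.86 FPKM in the Fe'i library, 21.8 ± 1.33 in the Cavendish library and 23.3 ± 1.43 in the Control library, and grn2, a granulin, at 443 ± 24.6 FPKM in the Fe'i library, 484 ± 23.7 in the Cavendish library and 1210 ± 53.1 in the Control library. mfap4, a macrophage marker, was at 179 ± 11.4 FPKM in the Fe'i library, 17.2 ± 2.4 in the Cavendish library and 324 ± 16.8 in the Control library, not called against Control and low in the Cavendish library. Of 47 acute phase and inflammatory genes 6 were called higher and 1 lower (median -0.01). il1b was at 4.74 ± 0.977 FPKM in the Fe'i library, 11.5 ± 1.28 in the Cavendish library and 5.43 ± 0.909 in the Control library and cxcl8b.1 at 32.8 ± 4.51 FPKM in the Fe'i library, 231 ± 9.5 in the Cavendish library and 38.5 ± 4.17 in the Control library, so that for both signals Fe'i and Control were close and Cavendish was high. il13 was at 4.21 ± 1.35 FPKM in the Fe'i library, 29 ± 2.84 in the Cavendish library and 0.64 ± 0.453 in the Control library.

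The C-reactive protein genes of chromosome 24 moved in opposite directions side by side. crp2 (38082471 to 38085789) was at 11.7 ± 2.75 FPKM in the Fe'i library, 1.57 ± 1.06 in the Cavendish library and 0.54 ± 1.03 in the Control library, and crp3 (38092608 to 38097305) at 155 ± 11.2 FPKM in the Fe'i library, 227 ± 13 in the Cavendish library and 67.6 ± 5.98 in the Control library, both called higher. crp6 (38130604 to 38131381) was at 1.63 ± 1.05 FPKM in the Fe'i library, 116 ± 7.03 in the Cavendish library and 35.4 ± 4.17 in the Control library, and crp7 (38137473 to 38192003) at 0.287 ± 0.538 FPKM in the Fe'i library, 56.7 ± 5.2 in the Cavendish library and 3.83 ± 1.32 in the Control library, both called lower. The low library was Control for crp2 and crp3, and Fe'i for crp6 and crp7. As crp2 reached 1 FPKM in the Fe'i library only and crp7 in the Control library only, the entry limit had fixed their direction. Near-identical copies share reads, so the split between neighbours is uncertain.

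Housekeeping complexes had almost no calls. None of 82 ribosomal protein genes was called, at a median of 0.04 (-0.10 to 0.03 under the other scalings). None of 41 proteasome genes was called either, but all 41 had a ratio below 0, at a median of -0.41 (-0.56 to -0.42 under the other scalings). pomp, the assembly chaperone of the proteasome, was at 151 ± 9.58 FPKM in the Fe'i library and 248 ± 10.5 in the Control library, and psma3 at 136 ± 9.12 FPKM in the Fe'i library and 213 ± 11.7 in the Control library. Of 83 nuclear genes of the respiratory chain none was called and 72 had a ratio below 0 (median -0.23). All 13 mitochondrially encoded genes had a ratio above 0 (median 0.46), and mt-nd3 was the 1 called. mt-co1 was at 13023 ± 53.2 FPKM in the Fe'i library and 9049.8 ± 38.1 in the Control library. None of 49 genes of DNA replication and mitosis was called, with the replication clamp pcna at 90.3 ± 4.56 FPKM in the Fe'i library and 125 ± 4.63 in the Control library and mki67 at 3.24 ± 0.336 FPKM in the Fe'i library and 3.4 ± 0.298 in the Control library.

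Among stress and timing genes, calls differed by list. None of 44 genes of folding in the endoplasmic reticulum was called, and hspa5, its main chaperone, was at 301 ± 6.4 FPKM in the Fe'i library, 101 ± 2.91 in the Cavendish library and 210.2 ± 4.61 in the Control library, lowest in Cavendish. fkbp5, a chaperone that glucocorticoids induce, was the lower gene of 28 heat shock and chaperone genes, at 52.5 ± 3.31 FPKM in the Fe'i library, 79.8 ± 4.1 in the Cavendish library and 120 ± 5.91 in the Control library. Of 28 clock genes 2 were called lower, nr1d1 and ciarta, which was at 3.08 ± 0.595 FPKM in the Fe'i library, 1.76 ± 0.36 in the Cavendish library and 7.17 ± 0.787 in the Control library. Of 33 hypoxia response genes 1 was called higher and 3 lower, led by hif1al, a hif1a-like gene, at 8.18 ± 0.965 FPKM in the Fe'i library, 23.6 ± 1.55 in the Cavendish library and 32.3 ± 2.09 in the Control library.

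Hormone and amine genes included 6 of 24 enteroendocrine genes called higher and 1 lower. calca, the calcitonin gene, was at 8.4 ± 2.33 FPKM in the Fe'i library, 1.53 ± 0.77 in the Cavendish library and 2.05 ± 0.961 in the Control library, and penkb, a proenkephalin, at 19.8 ± 2.27 FPKM in the Fe'i library, 2.55 ± 0.659 in the Cavendish library and 6.76 ± 1.13 in the Control library. Both were highest in the Fe'i library. The 4 other higher genes, sst2, sst1.2, sst1.1 and gcga, are shared with pancreatic islets. ins was at 633 ± 38.3 FPKM in the Fe'i library, 2307 ± 105 in the Cavendish library and 233 ± 17.6 in the Control library, and the islet sum was higher in both banana libraries. In tryptophan breakdown tdo2a, the dioxygenase of liver, was at 142 ± 7.81 FPKM in the Fe'i library, 51.2 ± 3.35 in the Cavendish library and 33.6 ± 2.79 in the Control library, its paralogue tdo2b at 10.1 ± 1.46 FPKM in the Fe'i library, 1.18 ± 0.426 in the Cavendish library and 1.3 ± 0.488 in the Control library, and ido1, the dioxygenase induced by interferon, at 15.12 ± 1.95 FPKM in the Fe'i library, 7.35 ± 1.09 in the Cavendish library and 5.02 ± 0.953 in the Control library. sult1st1, a sulfotransferase that acts on amines and phenols, was at 10.7 ± 1.49 FPKM in the Fe'i library, 18.3 ± 1.56 in the Cavendish library and 26 ± 1.99 in the Control library and called lower.

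Vitamin and mineral genes were called singly. gc, the vitamin D binding protein of plasma, was at 49.3 ± 3.71 FPKM in the Fe'i library, 22.3 ± 1.94 in the Cavendish library and 9.12 ± 1.24 in the Control library, and ttpa, the alpha-tocopherol transfer protein of liver, at 22.1 ± 2.73 FPKM in the Fe'i library, 12.7 ± 1.73 in the Cavendish library and 6.9 ± 1.52 in the Control library. slc39a4, a zinc importer, was at 0.886 ± 0.418 FPKM in the Fe'i library, 4.48 ± 0.751 in the Cavendish library and 3.07 ± 0.674 in the Control library, the 1 lower gene of 31 zinc and copper genes, and slc31a2, of the copper carrier family, was at 26.1 ± 2.73 FPKM in the Fe'i library, 7.8 ± 1.14 in the Cavendish library and 11.8 ± 1.52 in the Control library. Among 31 genes of potassium, sodium and chloride transport, slc26a6, an anion exchanger (ENSDARG00000055835 in the files), was at 8.62 ± 0.988 FPKM in the Fe'i library, 5.24 ± 0.642 in the Cavendish library and 2.48 ± 0.503 in the Control library. aqp10a, an aquaporin that carries glycerol in mammals, was at 16.9 ± 1.94 FPKM in the Fe'i library, 16.4 ± 1.53 in the Cavendish library and 45.4 ± 2.73 in the Control library. The 2 banana libraries were alike for this gene, and below Control.

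Called genes also lay side by side. Along the chromosomes, 31 runs of 3 or more neighbouring measured genes were called the same way, 24 of them higher with 111 genes and 7 lower with 26 genes, the longest of 9 genes. Of the 111 genes 57 reached 1 FPKM in the Fe'i library only, among them every gene of 6 runs, and of the 26 genes 10 did so in the Control library only. For these, being measured at all already fixed the direction. Named runs included the clotting factors f7, f7i, f10 and prozb on chromosome 1 (f10 at 43.3 ± 2.19 FPKM in the Fe'i library and 10.4 ± 0.935 in the Control library), and the complement genes c8a and c8b on chromosome 2. The factor H genes cfh, cfhl1, cfhl4 and cfhl5 formed another on chromosome 22 (23598036 to 23706771), with cfhl4 at 191 ± 9.83 FPKM in the Fe'i library, 67.5 ± 3.96 in the Cavendish library and 49.8 ± 3.37 in the Control library. On chromosome 11 arf4b, a GTPase of vesicle traffic, was called lower at 9.7 ± 1.82 FPKM in the Fe'i library and 34.3 ± 2.97 in the Control library, with 2 neighbouring ARF5 genes. Of 11 cerebellin genes (cbln) 7 were called higher, with cbln10 at 26.8 ± 2.48 FPKM in the Fe'i library, 16.7 ± 1.57 in the Cavendish library and 8.42 ± 1.2 in the Control library.

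Several runs held clone-named genes with the profile of the egg genes. The longest, on chromosome 22 (25611415 to 25756668), had 9 genes between 2.22 and 12.1 FPKM in the Fe'i library and none above 1.25 FPKM in the Cavendish or Control library. Of the 9, 6 were measured through the Fe'i library only. On chromosome 24, zgc:171474 (10010630 to 10014624) was at 5.46 ± 0.824 FPKM in the Fe'i library, 0.125 ± 0.104 in the Cavendish library and 0.0624 ± 0.0883 in the Control library. The Fe'i library was the high one for all of these genes. On chromosome 7 the reverse was seen. si:dkey-125e8.3 (2467057 to 2469958) was listed at 0 in the Fe'i library, with 18.9 ± 2.06 FPKM in the Cavendish and 30.1 ± 2.8 in the Control library, and 3 neighbours were listed at 0 in the Fe'i library too.

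Few genes were near 0 in one library and well above it in the other. In all, 15 genes stood at 5 FPKM or more in the Fe'i library and under 0.1 in the Control library, and 6 of these were also under 0.1 in the Cavendish library. Intervals were apart, and the gene therefore called, in 6 of the 15 and in 1 of those 6, ccl39a.10. For genes listed at 0 in a library, as ccl39a.10 was in the Control library, only the other library's interval had any width. The reverse held for 19 genes, 8 of them also under 0.1 in the Cavendish library. Of these, 9 of the 19 and 3 of the 8 were called, and the others had overlapping intervals. With 1 library per diet, a difference between diets and one between the fish pooled or taken cannot be told apart.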

How the data were processed

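Per the submitters' processing notes, FastQC 0.11.5 was used on the reads, TopHat2 2.1.0 for alignment and GRCz11 as the genome. The authors deposited FPKM as Cufflinks writes them, per the file headers, with a 95% interval and a status flag for every row. Cufflinks settings: not given in the sources used here. Groups came from the treatment label, with 1 library for each diet.

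Rows were summed by identifier (117 identifiers own 259 rows), and 9 rows of the vitellogenin region without an OK status were left out. Libraries were scaled by their median ratio over genes that reach 1 FPKM in every library, and ratios used log2(FPKM + 1). Called genes passed 2-fold with 95% intervals apart. The interval is 2 SD to each side, and effective fragments are the square of FPKM over SD. These came out whole (within 0.05) for 44.4% of low genes in the Fe'i, 44.3% in the Cavendish and 44.6% in the Control library, so no reads were recovered and no count test was run. Intervals cover counting and read assignment within a library only. The code of the calls was tested on simulated data. Python 3.11.15, pandas 2.3.3, NumPy 2.4.6, SciPy 1.17.1 and matplotlib 3.10.9 were used.

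The genes and lists were chosen with earlier results of these data known. Of 2418 listed symbols 2263 matched. Named genes are, first, the 15 highest and 15 lowest ratios among called genes that reach 5 FPKM and carry a gene name. Next are the 10 largest gains and losses, up to 6 called members per list and its 2 most abundant members where they were not called. A fixed set completes them. Not every gene under this rule is given in the text. Outside this rule, and chosen after their values were seen, are abcb11b, abcg5, alas2, aldh1a2, ap2m1a, arf4b, atp6v0ca, buc, c1qa, cbln10, cd247, cfhl4, cldng, crp7, ctsh, ctsk, ctss2.2, cxcl8b.1, cyp2p6, dgat1a, f10, fabp7a, fasn, hoxa9a, hoxc11a, hspa5, ifit9, il13, il1b, lamp2, lipca, mki67, mt-co1, mttp, mylipb, nr1h4, org, pcna, pdk2b, prdx1, psma3, rab11a, rab7, raraa, rarab, rdh10a, sar1b, si:dkey-125e8.3, slc39a4, soat2, sqstm1, tfr1b, tfr2, vil1 and zgc:171474, and the other members given by name alone. Near-identical families (chemokines, elastases, zona pellucida and C-reactive proteins, immunoglobulin segments) share reads and are uncertain. The alternatives were 2 other pseudocounts, 2 other minimum levels, 4 other scalings and a 99% interval.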

Additional observations from a re-analysis of the deposited data

Results flagged for a closer look

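Among the genes named under the rule given above, 8 were called in opposite directions against the Control library in the 2 banana libraries, and none of these differences was tested. Outside that rule, crp7 was below Control in the Fe'i library and above it in the Cavendish library, and fabp7a the reverse. The log2 ratio of Fe'i over Cavendish was 2.3 for dab2, 2.18 for lrp2b, 2.55 for penkb and 3.56 for cyp2k22, which were above Control in the Fe'i library and below it in the Cavendish library. It was -5.47 for crp6, -6.06 for cyp7a1, -2.71 for mylpfa, a skeletal muscle myosin light chain, and -4.47 for the hp gene of chromosome 7, a haptoglobin. These were below Control in the Fe'i library and above it in the Cavendish library. Another and more abundant hp gene was called higher. It was at 272 ± 14.2 FPKM in the Fe'i library, 121 ± 7.67 in the Cavendish library and 113 ± 7.93 in the Control library. The liver marker sums were 25623 FPKM in the Fe'i, 12686 in the Cavendish and 5669 in the Control library, and their part in the cyp7a1 and hp values was not tested.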

How the results depend on the processing

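The counts of calls depended on how low values were treated. With a pseudocount of 5 in place of 1, 333 genes were called higher and 79 lower, and with 0.1 the lower calls numbered 400 and the higher ones 927. With a minimum of 5 FPKM 161 genes were called lower and 473 higher. The split moved too: 73.3% of calls were higher in the comparison as reported, 80.8% with a pseudocount of 5 and 69.9% with 0.1. Under other scalings it was 65.7% with the deposited FPKM (616 higher, 321 lower), 64.9% with TPM (622 and 337) and 68.8% when TPM left out pancreas and mitochondrial genes (706 and 320). Over 1782 alternatives for 297 named genes, none of the 189 called genes and 14 of the 108 uncalled ones changed sign, and 473 values moved by more than their interval. For the called genes the absence of sign changes was fixed in advance and is no check on them. A pseudocount cannot change a sign. No scaling moved the median of all genes further than -0.11, while calls start at 2-fold. Of 72 list medians, 16 changed sign under 1 or more of 575 alternatives, 32 times in all. Of these, 27 changes in 12 lists were of medians within 0.1 of 0, such as ribosomal proteins, cholesterol and nuclear receptors. The 5 changes of larger medians were in vitamins other than A (0.0148 with no minimum), immediate early genes (-0.0134 with deposited FPKM and -0.0196 with TPM), circadian clock (0.0059 at 5 FPKM) and macrophages and neutrophils (0.0235 with no minimum). The cause was not tested. No paired analysis was possible because each diet has 1 library, and leaving out a library would leave no comparison. The planned description of promoter motifs was not run, since promoter sequences were not used here. At low depth, genes near 1 FPKM rest on few fragments and carry wide intervals.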
